A study of Mus musculus with 6 samples.

Results

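The endoplasmic reticulum folds secreted and membrane proteins, and 40 genes of its folding machinery and stress response were followed here in mouse heart. They were chosen by symbol from a list of chaperones (13 genes), disulfide isomerases (8), degradation factors (9), translocon subunits (5) and stress sensors with their factors (5). Each symbol matched 1 of the 26835 genes of the deposited table, and all 40 are annotated as protein coding. Of these, 38 had a mean of at least 1 FPKM (fragments counted per gene, scaled to transcript length and sequencing depth) over the 6 libraries and were tested among 10329 genes. The 2 below that level were Hspa13 and Derl3.

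The study sequenced messenger RNA from the hearts of wild-type mice of the C57BL/6 strain, 7 to 8 weeks old and of about 20 g body weight. The control group received 10% DMSO by injection into the abdominal cavity. The CFZ group received carfilzomib at 8 mg/kg, an irreversible inhibitor of the proteasome used against multiple myeloma, and the CFZ_EA group received the same dose together with electroacupuncture at the point PC6. Each group has 2 libraries, every library carries the same list of days, and no group received electroacupuncture without carfilzomib. Which chamber was taken, and whether both libraries of a group represent different animals, is not stated in the labels. The p-values therefore reflect spread between libraries that may be only technical. The comparisons ask how these genes stood after carfilzomib and after carfilzomib with electroacupuncture.

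As background, proteins enter the endoplasmic reticulum through the Sec61 channel, are folded by chaperones and disulfide isomerases, and are sent back to the cytosol for destruction by the proteasome when folding fails. When unfolded proteins build up, the sensors IRE1, PERK and ATF6 start the unfolded protein response, which raises chaperone and degradation genes and slows translation. In the heart this system serves the membrane and calcium-handling proteins of myocytes and the secreted matrix proteins of fibroblasts, and inhibition of the proteasome is a standard way of provoking it in cultured cells.

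A textbook control element of these genes is the endoplasmic reticulum stress response element (ERSE), which is bound by ATF6 and NF-Y, and the promoters that carry it are shown because they tie a set of the genes together by sequence. RefSeq promoters on GRCm38.p6, from 250 bases before to 50 after each start, matched 32 of the 40 genes; Atf6, Derl1, Erp29, Hspa13, Hyou1, Manf, Sec61a1 and Sil1 had none in the table used. ERSE was searched as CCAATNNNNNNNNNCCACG on both strands, and the matches are printed with 3 flanking bases on each side, 5′ to 3′ on the strand of the gene. Capitals mark the fixed ends of the element, which read CCAAT and CCACG on the gene's strand, or CGTGG and ATTGG where the element lies on the other strand.
Hspa5 (chr2:34772025-34772043, plus strand): tcaCCAATcggaggcctCCACGacg
Hsp90b1, distal (chr10:86705638-86705656, minus strand): agcCCAATcgcaaggagCCACGctt
Hsp90b1, proximal (chr10:86705533-86705551, minus strand): gtgCGTGGtgaggcacgATTGGtga
Calr (chr8:84847075-84847093, minus strand): acgCGTGGtcgaccctcATTGGccc
Canx (chr11:50325800-50325818, minus strand): tgaCCAATcaccacgctCCACGaag
Dnajc3 (chr14:118937827-118937845, plus strand): caaCCAATcagcgccaaCCACGacc
Pdia6 (chr12:17266491-17266509, plus strand): agaCCAATgaaaggcggCCACGgcg
Creld2 (chr15:88819520-88819538, plus strand): tctCGTGGcgagcctcaATTGGtcc
Syvn1 (chr19:6046532-6046550, plus strand): caaCCAATcggcggtagCCACGgga
Derl3 (chr10:75893242-75893260, plus strand): tacCGTGGgacttccccATTGGcta
These are 9 of the 32 genes with a promoter (28.1%), against 37 of the 27025 genes in the whole table (0.137%), and 6 of the 32 (18.8%) with the gene's strand alone. The related element ERSE-II was searched as ATTGG and CCACG separated by any 1 base, which shares no match with ERSE here, and it lay in 2 of the 32 promoters (6.25%), against 0.0444% of all genes.
Herpud1 (chr8:94386377-94386387, plus strand): ctgATTGGgCCACGttg
Dnajb11 (chr16:22857852-22857862, plus strand): gcgATTGGcCCACGcct
The motif TGACGTGG, a core that XBP1 can bind, lay in the Txndc5 promoter only among the 32 (3.12%), against 0.714% of all genes. A match is a run of letters and not a measured binding site. The Hspa5 promoter is shown from 250 bases to 1 base before the start (chr2:34771840-34772089, plus strand), because this gene, which encodes the master chaperone BiP, is the usual readout of the response.
Hspa5 promoter: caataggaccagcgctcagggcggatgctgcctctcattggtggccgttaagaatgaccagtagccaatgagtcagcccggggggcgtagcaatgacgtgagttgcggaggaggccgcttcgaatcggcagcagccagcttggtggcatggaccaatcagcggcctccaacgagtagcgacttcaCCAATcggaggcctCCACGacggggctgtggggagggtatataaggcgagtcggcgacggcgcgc
The ERSE in capitals ends 47 bases before the start, upstream of the run tatataa, and it is the 1 exact match in this window. The deposited table starts Hspa5 further upstream, at 34771970, inside the printed run.

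**Figure D1:**
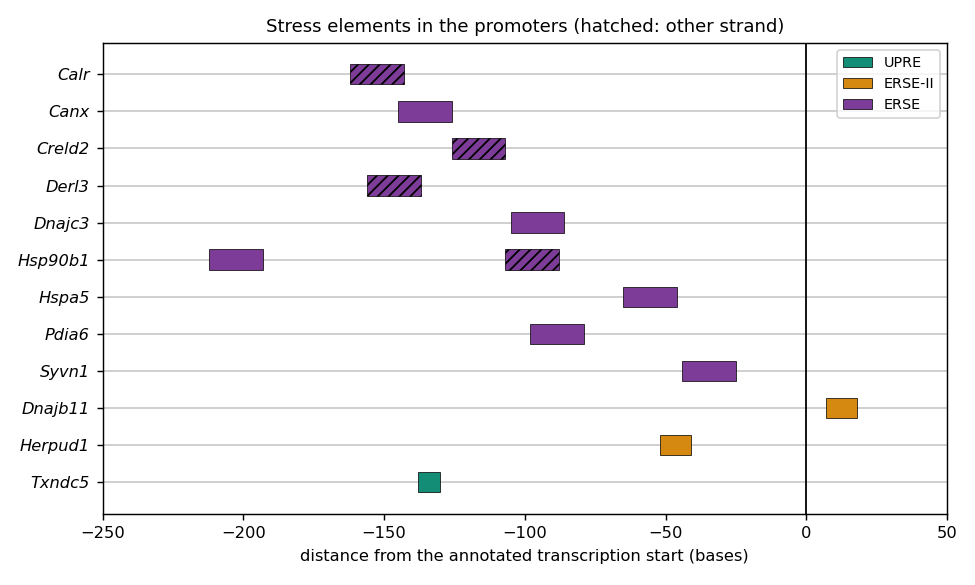
Positions of ERSE, ERSE-II and TGACGTGG (UPRE) matches in the promoters of the endoplasmic reticulum genes that hold one; the horizontal axis is the distance in bases from the RefSeq start, each bar is 1 match, and hatched bars lie on the other strand. The Hspa5 element ends 47 bases before the start, and the distal Hsp90b1 element runs from position -212 to -194.

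The libraries held between 50013990 and 75742448 estimated counts, and mitochondrial genes took 14.8% to 21.3% of them. Control replicate 2 stood apart on the first principal component (37.7% of the variance), at 52.6 against -26.5 to -2.22 for the other 5 libraries, and values without it are given beside the results that moved most. A list of 8 heart muscle genes (such as Myh6 and Myl2) summed to 21863 to 26341 FPKM. It is called the ventricular list here, but Myh6 and others of it are not specific to the ventricle. Atrial markers varied widely: the 9-gene list summed to 2863 and 1621 FPKM in the control, 346 and 213 in the CFZ and 977 and 5729 in the CFZ_EA libraries. The 40 genes together took 0.293% and 0.393% of the counts in the control libraries, 0.246% and 0.244% in the CFZ and 0.257% and 0.244% in the CFZ_EA libraries.

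By level, averaged over the 6 libraries, Calr was the most abundant of the 40 at 143 ± 27.4 FPKM (SD, n = 6). Calr encodes calreticulin, a calcium-binding lectin chaperone. P4hb, the archetypal protein disulfide isomerase, followed at 95.6 ± 26.4 FPKM, then Herpud1, a membrane adaptor of degradation, at 60.7 ± 6.89 FPKM and Hspa5 at 49.0 ± 20.7 FPKM. The order of the last pair held in the treated groups, with Herpud1 at a mean of 59.8 and Hspa5 at 34.2 FPKM in CFZ, but not in control, where Hspa5 stood at 73.5 and Herpud1 at 67.1 FPKM. The sensors were spread widely. Wfs1, a membrane protein mutated in Wolfram syndrome, averaged 29.9 ± 1.004 FPKM and the transcription factor gene Xbp1 25.9 ± 6.10 FPKM, whereas the kinase sensor genes Eif2ak3 (PERK) and Ern1 (IRE1) averaged 1.298 ± 0.311 and 1.17 ± 0.162 FPKM. At the bottom, Hspa13, an HSP70-like ATPase, averaged 0.802 ± 0.104 FPKM, and Derl3, a derlin typical of secretory cells, was listed at 0 in CFZ replicate 1 and at most 0.0664 FPKM elsewhere. Along this order, the gap between neighbours was larger than their pooled SD at 7 of 39 steps, among them Calr over P4hb, P4hb over Herpud1 and Hspa5 over Pdia3. The other 32 pairs of neighbours did not differ beyond their spread.

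**Figure D2:**
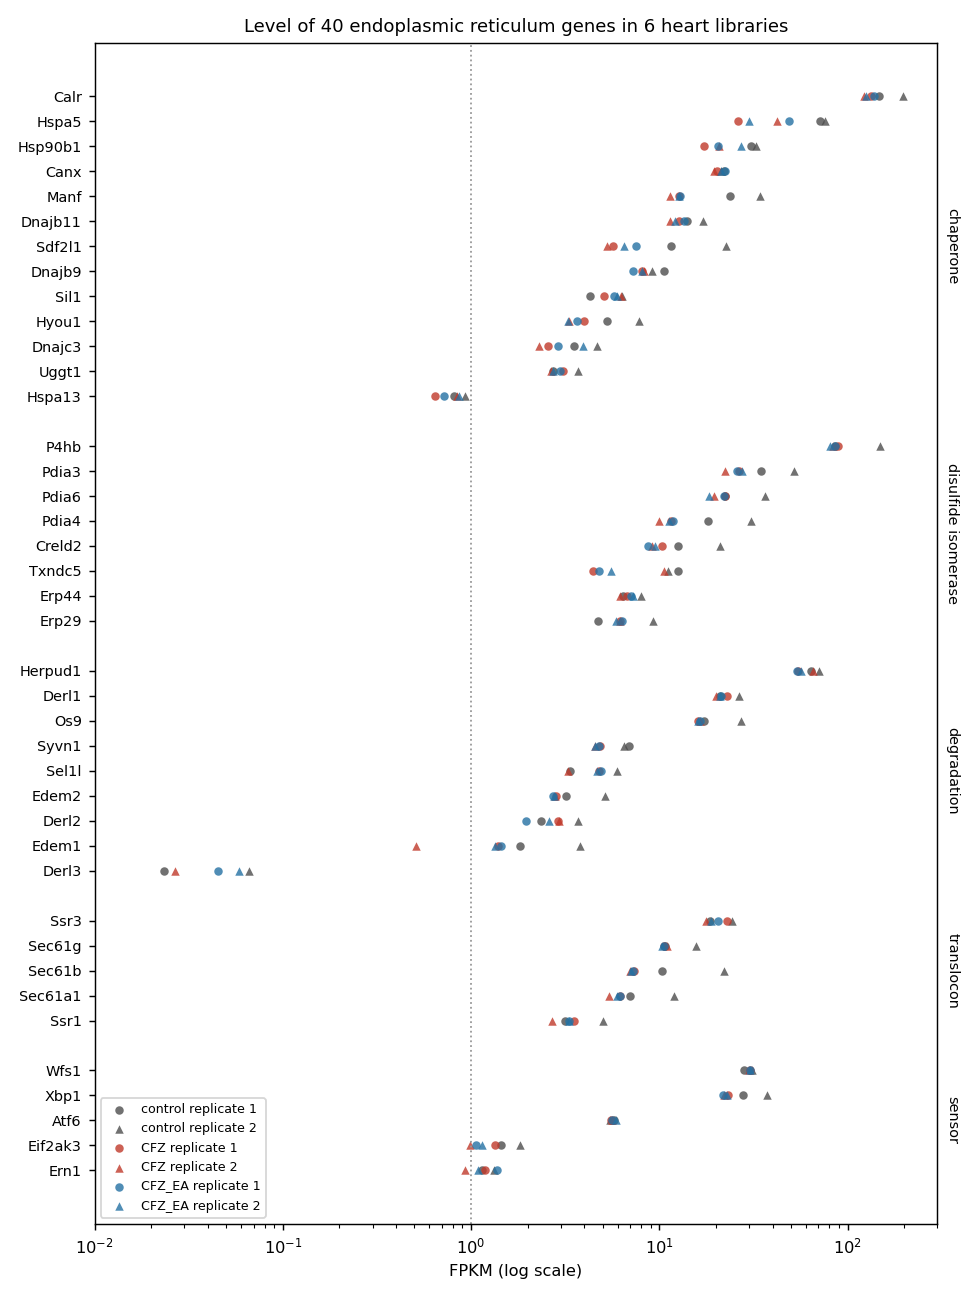
FPKM of the 40 genes in each of the 6 libraries on a log axis, grouped by role and ordered by mean, with 1 point per library and a dotted line at the 1 FPKM used as the limit for testing. Calr lies at the top and Derl3, not drawn in CFZ replicate 1 where it is listed at 0, at the bottom.

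After carfilzomib, 34 of the 38 tested genes had a lower fitted level than in control and 4 a higher one, where 50.5% of all tested genes were lower. Their median log2 fold change was -0.38, against -0.0034 for all genes. Both CFZ libraries lay below both control libraries for 22 genes (20.8% of all genes) and above them for 0. At an unadjusted p under 0.05, edgeR's quasi-likelihood test had 16 genes lower (5.9% of all genes) and 0 higher (1.82%). After Benjamini-Hochberg adjustment, edgeR called 0 of the 38 (0.029% of all genes called), with the lowest adjusted p, 0.462, for Manf and 0.608 or more for the others. DESeq2, run as another test on the same counts, called 5 of them lower (1.34% of all genes called): Manf, Sdf2l1, Pdia4, Pdia3 and Hyou1.

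The call and the size both depended on the control libraries. Without control replicate 2, edgeR called 0 of the 38 (0.0387% of all genes called), 29 had a negative fold change in its fit (48.9% of all genes) and their median stood at -0.21. DESeq2 called 3 of them without that library (Manf, Sdf2l1 and Pdia4; 1.09% of all genes called). Without control replicate 1, edgeR called 8 of the 38 lower (Manf, Sdf2l1, Pdia4, Sec61b, Pdia3, Sec61a1, Hyou1 and P4hb; 3.21% of all genes called) and their median stood at -0.52. Set against control replicate 1 alone, both CFZ libraries were lower for 23 genes (29.2% of all genes), and against control replicate 2 alone for 37 (50.3%). The control replicates themselves differed: 33 of the 38 genes (86.8%) were higher in replicate 2 than in replicate 1, by a median of 0.48 on the log2 scale, against 67.0% and 0.14 for all genes. The count of genes at an unadjusted p under 0.05 was 6 without CFZ replicate 1 (3.6% of all genes), 10 without CFZ replicate 2 (2.93%) and 9 without control replicate 2 (3.17%). The fitted fold change of 11 of the 38 turned sign when 1 library was left out (Sil1, Canx, Uggt1, Erp29, Sel1l, Herpud1, Derl1, Derl2, Sec61g, Ssr3 and Atf6). Leaving out control replicate 2 turned 7, and 11 others came nearer to 0 by more than 1.5 times.

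**Figure D3:**
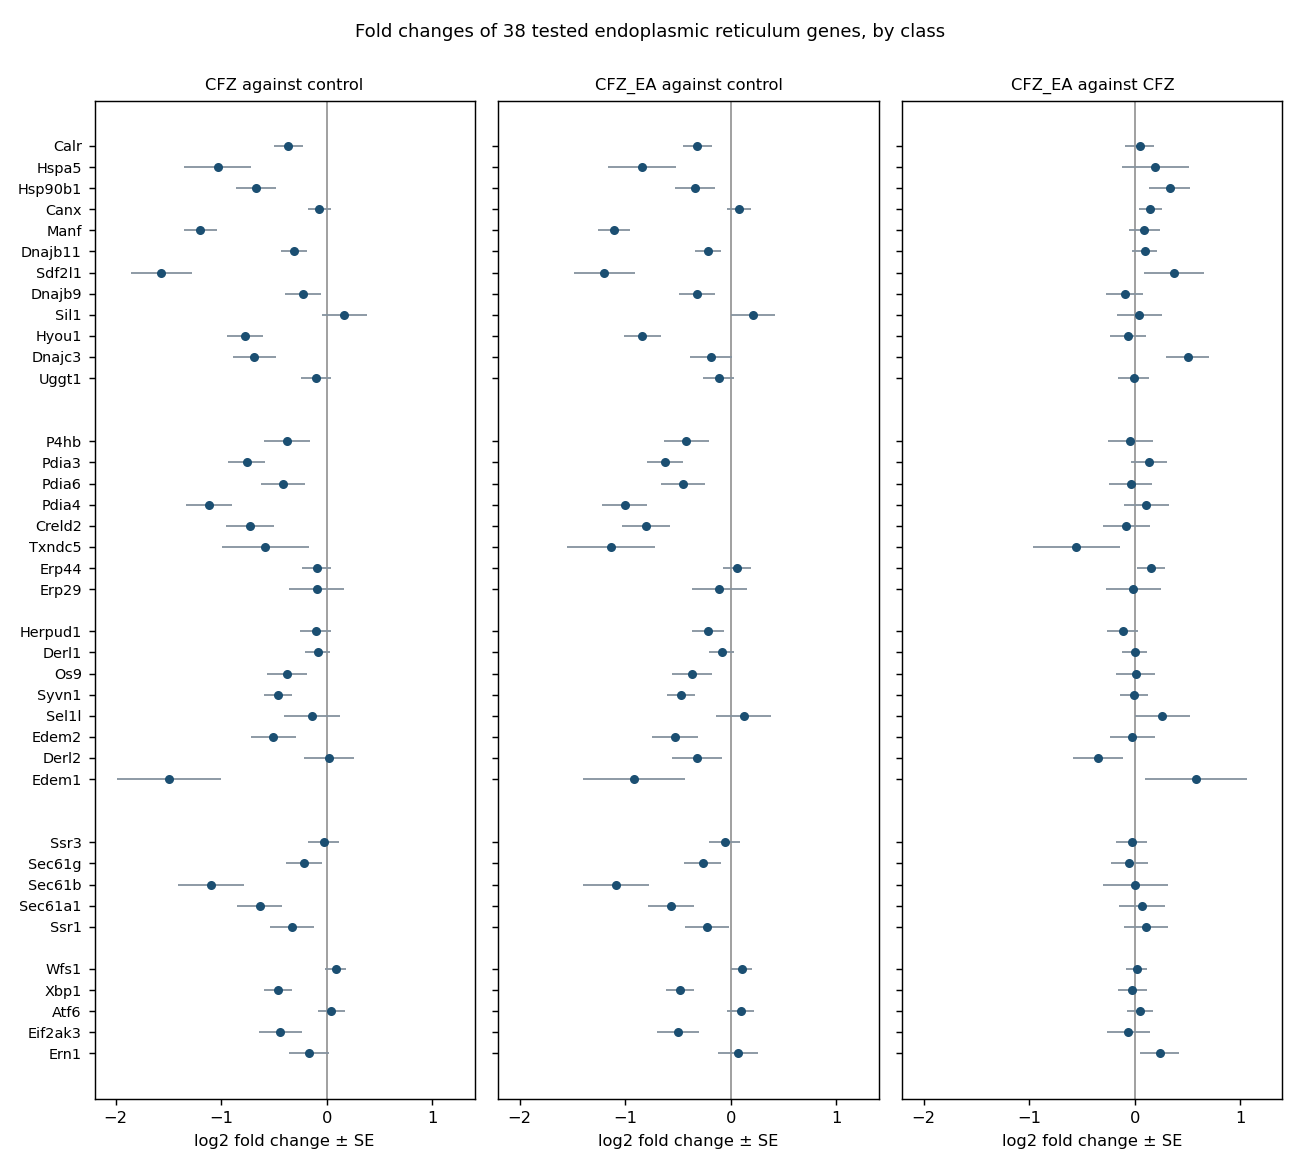
Fitted log2 fold change (points) with its standard error (bars) for the 38 tested genes, ordered by role, in 3 panels for CFZ against control, CFZ_EA against control and CFZ_EA against CFZ. In the panels against control most points lie left of 0, with medians of -0.38 and -0.33, and in the CFZ_EA against CFZ panel they lie around 0, with a median of 0.015.

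Chaperones had a median of -0.52 over 12 tested genes, and 11 of the 12 had negative fold changes. Both CFZ libraries were below both controls for 10 of them (20.8% of all genes). By edgeR, 8 were lower at an unadjusted p under 0.05 (5.9% of all genes). Hspa5 (ENSMUSG00000026864, chr2:34771970-34777547 on GRCm38) encodes BiP, the ATP-driven HSP70 chaperone that also holds the sensors inactive. Its levels were 71.3 and 75.7 FPKM in the control, 26.1 and 42.3 in the CFZ and 48.9 and 29.8 FPKM in the CFZ_EA libraries (replicates 1 and 2). The controls were close to each other and above the other 4 libraries, while the replicates within each treated group were far apart. The log2 fold change of CFZ against control was -1.03 ± 0.32 (SE), from -1.49 without CFZ replicate 2 to -0.69 without CFZ replicate 1.

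Hsp90b1 (ENSMUSG00000020048, chr10:86690209-86705509) encodes GRP94, the HSP90 of the endoplasmic reticulum, which folds integrins and Toll-like receptors. It measured 30.7 and 32.5 FPKM in the control, 17.2 and 20.8 in the CFZ and 20.6 and 27.1 FPKM in the CFZ_EA libraries. As for Hspa5, the controls were alike and above the other 4, and the log2 fold change after carfilzomib was -0.67 ± 0.19 (SE). An antisense gene, 1810014B01Rik, covers 10.3% of the exon bases of Hsp90b1, and whether the counts used strand is not given in the sources used here. Calr, the soluble lectin of the glycoprotein cycle, measured 147 and 196 FPKM in the control, 133 and 122 in the CFZ and 137 and 125 in the CFZ_EA libraries, a log2 fold change of -0.37 ± 0.14 after carfilzomib, or -0.22 without control replicate 2. Every treated library was below the lower control, by a small margin. Canx, the membrane-bound lectin calnexin, stood at 21.9 and 21.3 FPKM in the control against 20.2 and 19.5 FPKM in the CFZ libraries, which did not overlap by a narrow margin (-0.07 ± 0.11, and 0.023 without control replicate 1). Uggt1, the folding sensor of glycoproteins, had overlapping groups (-0.10 ± 0.14).

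Manf and Sdf2l1 gave the smallest p-values of the chaperones. Manf (ENSMUSG00000032575, chr9:106838312-106891915) encodes a small secreted factor that stabilises BiP with its clients and is released in stress. Its levels were 23.8 and 34.2 FPKM in the control, 12.8 and 11.4 in the CFZ and 12.9 and 12.7 FPKM in the CFZ_EA libraries. The 4 treated libraries lay within a narrow band, and all of them were below the lower control. The antisense genes 4930524O07Rik and Dcaf1 cover 4.71% and 4.14% of the Manf exon bases. The log2 fold change after carfilzomib was -1.20 ± 0.15 (SE), a 2.29-fold lower level, and -0.99 without control replicate 2. DESeq2 gave it an adjusted p of 6.52e-08, and 6.77e-07 without control replicate 2, while over the 18 alternatives the adjusted p reached 0.804, with limma on log2(FPKM + 1).

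Sdf2l1 (ENSMUSG00000022769, chr16:17130138-17132383), which works with BiP's J-domain cochaperones against aggregation, had the largest fold change of the 38 with all libraries. It measured 11.6 and 22.6 FPKM in the control, 5.64 and 5.30 in the CFZ and 7.52 and 6.52 FPKM in the CFZ_EA libraries. The controls differed 1.95-fold, and every treated library was below both. The log2 fold change was -1.57 ± 0.29 (SE), and -1.09 without control replicate 2. Without CFZ replicate 1, Edem1 had the larger fold change, -2.32. Hyou1 (GRP170, a nucleotide exchange factor for BiP; chr9:44379490-44392369) measured 5.28 and 7.75 FPKM in the control, 3.96 and 3.33 in the CFZ and 3.64 and 3.28 FPKM in the CFZ_EA libraries. Both controls were above the 4 treated libraries, with a log2 fold change of -0.77 ± 0.17 (SE) after carfilzomib. DESeq2 gave Hyou1 an adjusted p of 0.0205, and 0.316 without control replicate 2.

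The J-domain cochaperones, which deliver unfolded clients to BiP, covered a range of values. Dnajc3 (p58IPK, also an inhibitor of PERK) measured 3.53 and 4.65 FPKM in the control, 2.56 and 2.30 in the CFZ and 2.89 and 3.92 FPKM in the CFZ_EA libraries. Both CFZ libraries were the lowest of the 6, and the log2 fold change after carfilzomib was -0.69 ± 0.20 (SE). Dnajb11 (ERdj3) had a log2 fold change of -0.31 ± 0.12 and Dnajb9 (ERdj4) of -0.22 ± 0.17 (-0.04 without control replicate 1), and in each the CFZ libraries lay below both controls. Sil1, the other nucleotide exchange factor of BiP, was the 1 chaperone with a positive value, 0.17 ± 0.21, with overlapping groups. Untested Hspa13 lay between 0.647 and 0.933 FPKM in all 6 libraries.

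**Figure D4:**
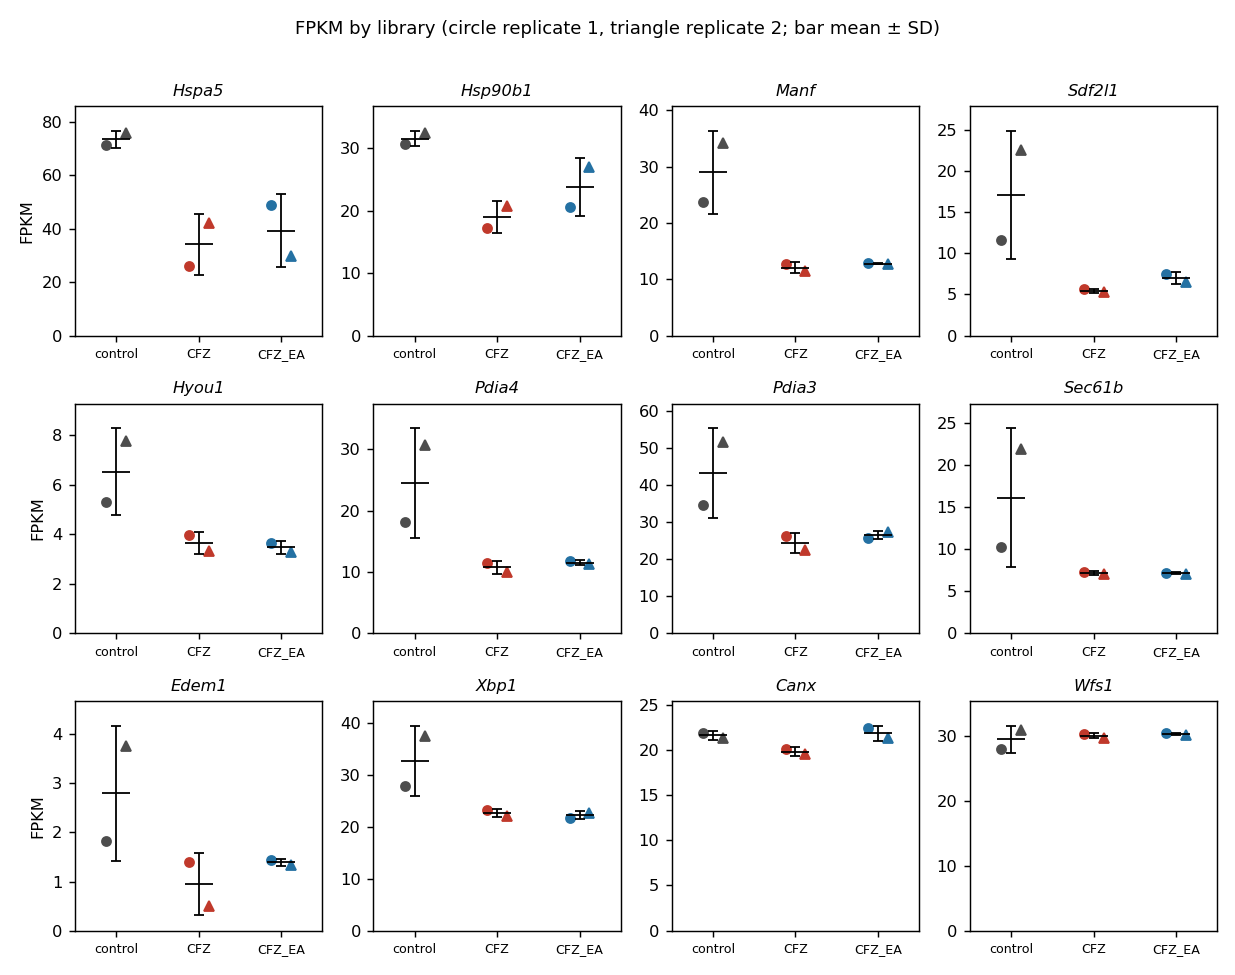
FPKM of 12 genes by group on axes that start at 0, with circles for replicate 1, triangles for replicate 2 and bars for the mean ± SD (n = 2). Hspa5 and Hsp90b1 have close controls, whereas Sdf2l1, Sec61b and Edem1 have controls that differ by 1.95-fold, 2.13-fold and 2.06-fold, and Canx and Wfs1 are nearly level across groups.

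All 8 disulfide isomerases, which form and shuffle the bonds between cysteines, had negative fold changes after carfilzomib, with a median of -0.50 that became -0.25 without control replicate 2. Both CFZ libraries were below both controls for 4 of them (20.8% of all genes). By edgeR, 3 were lower at an unadjusted p under 0.05 (5.9% of all genes). Pdia4 (ERp72; ENSMUSG00000025823, chr6:47796141-47813430) measured 18.1 and 30.8 FPKM in the control, 11.5 and 9.99 in the CFZ and 11.8 and 11.2 FPKM in the CFZ_EA libraries. The treated libraries were alike and below the lower control. Its log2 fold change was -1.12 ± 0.22 (SE), and -0.77 without control replicate 2, where DESeq2 still called it (adjusted p = 0.0049, against 0.00194 with all libraries, and up to 0.866 over the 18 alternatives).

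Pdia3 (ERp57, the partner isomerase of calnexin and calreticulin; chr2:121413775-121438687) measured 34.6 and 51.8 FPKM in the control, 26.3 and 22.4 in the CFZ and 25.8 and 27.3 FPKM in the CFZ_EA libraries. No treated library reached the lower control, and the log2 fold change after carfilzomib was -0.76 ± 0.17 (SE). Creld2, a stress-induced protein with isomerase activity, measured 12.6 and 21.1 FPKM in the control, 10.3 and 9.10 in the CFZ and 8.69 and 9.54 FPKM in the CFZ_EA libraries. Its groups also did not overlap, and the log2 fold change was -0.72 ± 0.23 (SE), or -0.39 without control replicate 2. The most abundant isomerase was laid out differently. P4hb, which is also a subunit of collagen prolyl 4-hydroxylase, measured 86.0 and 149 FPKM in the control, 88.6 and 83.6 in the CFZ and 85.2 and 81.0 FPKM in the CFZ_EA libraries. Control replicate 2 alone was high, and the log2 fold change of -0.38 ± 0.22 became -0.01 without it. Pdia6 showed the same layout, with 36.3 FPKM in control replicate 2 and 18.3 to 22.4 in the other 5 libraries, and its log2 fold change of -0.42 became -0.10 without that control. Txndc5 (ERp46), an isomerase known from fibroblasts, was low in 3 libraries (CFZ replicate 1 at 4.43 and both CFZ_EA libraries at 4.81 and 5.51 FPKM), while CFZ replicate 2 stood at 10.6 beside 12.5 and 11.1 FPKM in the controls. Its log2 fold change of -0.58 after carfilzomib ran from -1.42 without CFZ replicate 2 to -0.06 without CFZ replicate 1. The antisense genes Gm31834 and Bmp6 cover 6.92% and 4.99% of the Txndc5 exon bases. Erp29 and Erp44, a chaperone-like relative and a retrieval factor of the secretory pathway, both had log2 fold changes of -0.10 with overlapping groups, and without control replicate 2 that of Erp29 was 0.38. The antisense gene Naa25 covers 24.4% of the Erp29 exon bases, so reads of the pair may be mixed.

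Degradation factors, which recognise and export misfolded proteins, had a median of -0.26, or -0.10 without control replicate 2, and 7 of 8 were negative. Both CFZ libraries were below both controls for 4 of them (Syvn1, Edem1, Edem2 and Os9), against 20.8% of all genes. By edgeR, 2 were lower at an unadjusted p under 0.05 (5.9% of all genes). Syvn1 (HRD1, the ubiquitin ligase of the main export complex) measured 6.94 and 6.52 FPKM in the control, 4.84 and 4.56 in the CFZ and 4.75 and 4.53 FPKM in the CFZ_EA libraries. All 3 pairs of replicates were close, and the treated libraries were lower than both controls by a similar margin. Its log2 fold change was -0.47 ± 0.13 (SE), ranging from -0.57 without control replicate 2 to -0.35 without control replicate 1. Sel1l, the partner of Syvn1 in that complex, measured 3.34 and 5.94 FPKM in the control and 4.80 and 3.27 in the CFZ libraries, so its groups overlapped (-0.14 ± 0.26, and 0.25 without control replicate 2).

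Edem1, a mannosidase-like lectin that pulls glycoproteins out of the calnexin cycle, measured 1.83 and 3.77 FPKM in the control, 1.39 and 0.509 in the CFZ and 1.44 and 1.35 FPKM in the CFZ_EA libraries. The treated libraries were below the controls, but replicates differed widely in both control and CFZ. The log2 fold change was -1.50 ± 0.49 (SE), and ran from -2.32 without CFZ replicate 1 to -0.97 without control replicate 2. Its relative Edem2, the mannosidase of the first trimming step, measured 3.20 and 5.16 against 2.82 and 2.79 FPKM in the CFZ and 2.74 and 2.75 FPKM in the CFZ_EA libraries, a log2 fold change of -0.51 ± 0.21 after carfilzomib, or -0.21 without control replicate 2. Os9, a lectin that delivers clients to SEL1L, had a log2 fold change of -0.38 ± 0.19 with control replicate 2 high at 27.1 and the other 5 libraries at 16.0 to 17.2 FPKM, and of -0.10 without that control. Herpud1 measured 63.5 and 70.7 FPKM in the control, 54.2 and 65.4 in the CFZ and 53.8 and 56.5 FPKM in the CFZ_EA libraries. Its control and CFZ groups overlapped, and its log2 fold change of -0.10 ± 0.15 ran from -0.30 without CFZ replicate 2 to 0.069 without CFZ replicate 1. The derlins, membrane proteins of the export channel, overlapped as well, with Derl1 at -0.09 ± 0.12 and Derl2 at 0.02 ± 0.24.

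Translocon genes, whose products carry new chains into the lumen, all had negative fold changes (5 of 5), with a median of -0.33 that became -0.04 without control replicate 2. Both CFZ libraries were below both controls for 2 of them, Sec61b and Sec61a1 (20.8% of all genes). By edgeR, these were also the 2 lower at an unadjusted p under 0.05 (5.9% of all genes). Sec61b, the small beta subunit of the channel, measured 10.3 and 21.9 FPKM in the control, 7.29 and 6.97 in the CFZ and 7.20 and 7.06 FPKM in the CFZ_EA libraries. The 4 treated libraries were almost equal, and the controls differed 2.13-fold. Its log2 fold change was -1.10 ± 0.31 (SE), and -0.54 without control replicate 2. Sec61a1, the pore subunit, measured 6.96 and 12.0 FPKM in the control, 6.21 and 5.41 in the CFZ and 6.16 and 5.93 FPKM in the CFZ_EA libraries, with a log2 fold change of -0.64 ± 0.22, or -0.28 without control replicate 2. The treated libraries were again below both controls, and replicate 2 was the one far above them. Sec61g, the gamma subunit, overlapped (-0.22 ± 0.17, and 0.0087 without control replicate 2). Ssr1 and Ssr3, subunits of the translocon-associated TRAP complex, had log2 fold changes of -0.33 ± 0.21 and -0.03 ± 0.15. That of Ssr1 was -0.04 without control replicate 2, and for Ssr3 the sign turned under several settings (0.10 without CFZ replicate 2).

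Sensors and their factors had a median of -0.16, which ran from -0.30 without CFZ replicate 1 to -0.04 without CFZ replicate 2, and 3 of 5 were negative. Xbp1, whose messenger RNA is spliced by IRE1 to give the main transcription factor of the response, measured 27.9 and 37.5 FPKM in the control, 23.3 and 22.2 in the CFZ and 21.7 and 22.8 FPKM in the CFZ_EA libraries. Its treated libraries were all below both controls. Its log2 fold change of -0.46 ± 0.13 (SE) was the 1 in this class at an unadjusted p under 0.05 (5.9% of all genes). Gene-level counts do not separate spliced from unspliced Xbp1. Eif2ak3, the PERK gene, measured 1.44 and 1.83 FPKM in the control, 1.34 and 0.983 in the CFZ and 1.06 and 1.14 FPKM in the CFZ_EA libraries. The groups did not overlap, at levels close to the limit for testing (-0.44 ± 0.20, and -0.28 without CFZ replicate 2). The antisense gene Gm43292 covers 8.05% of the Eif2ak3 exon bases. Ern1 measured 1.14 and 1.32 FPKM in the control and 1.18 and 0.927 in the CFZ libraries, which overlap (-0.16 ± 0.19, and -0.04 without CFZ replicate 2). Atf6 stood between 5.47 and 5.87 FPKM in all 6 libraries (0.04 ± 0.13), and Wfs1 measured 28.0 and 30.9 FPKM in the control, 30.3 and 29.8 in the CFZ and 30.4 and 30.1 FPKM in the CFZ_EA libraries (0.08 ± 0.10). These last 2 were nearly level across the groups.

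Read by promoter, the 8 tested genes with an ERSE all had negative fold changes after carfilzomib, from -1.03 (Hspa5) to -0.07 (Canx), with a median of -0.57. Without control replicate 1, 7 of the 8 were negative. The 21 tested genes whose matched promoter held neither ERSE nor ERSE-II had a median of -0.38, and 19 of them were negative. Their median was -0.13 and that of the ERSE genes -0.47 without control replicate 2. In the same order, these medians were -0.54 and -0.66 without control replicate 1. They were -0.37 and -0.48 without CFZ replicate 1, and -0.29 and -0.57 without CFZ replicate 2. The lowest values with all libraries, those of Sdf2l1 (-1.57) and Edem1 (-1.50), belonged to promoters with neither letter pattern. The 7 tested genes without a matched promoter, among them Manf (-1.20), had a median of -0.096, and 5 were negative. Outside the 40, 28 genes held an ERSE, 4 were tested, and 2 of these were negative. For CFZ_EA against control, the median was -0.40 for the ERSE genes and -0.37 for the genes with neither element. The difference between these sets was not tested.

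Several lists of cell type markers also differed between the libraries, and their part in these results was not tested. The 13 fibroblast markers summed to 1093 and 2399 FPKM in the control, 845 and 747 in the CFZ and 1072 and 1121 in the CFZ_EA libraries, and all 13 were lower in CFZ than in control. In CFZ_EA against CFZ, all 13 were higher, as were all 9 atrial and all 7 epicardial and mesothelial markers. In that comparison 7 of 10 macrophage and 7 of 8 endothelial markers were lower. The 10 macrophage markers summed to 319 and 931 FPKM in the control, 243 and 277 in the CFZ and 243 and 285 in the CFZ_EA libraries, and all 10 were lower in both treated groups. No fibroblast or macrophage marker was at 0 in any library. Epicardial and mesothelial markers summed to 21.6 and 54.0 FPKM in the control, 4.48 and 3.96 in the CFZ and 4.88 and 13.0 in the CFZ_EA libraries. B and plasma cell markers, from cells rich in endoplasmic reticulum, summed to 15.0 and 71.2 FPKM in the control and 11.4 to 14.4 in the other 4 libraries; Igkc held 55.2 FPKM of the higher sum, and Jchain was at 0 in control replicate 1 and at 2.27 FPKM in control replicate 2. All 9 atrial and all 6 erythroid markers were lower in CFZ than in control too, the erythroid list at 4962 and 5666 FPKM against 2654 and 3316. Endothelial markers summed to 148 to 182 FPKM, and 5 of 8 were lower in CFZ and all 8 in CFZ_EA than in control. The 8 genes of the ventricular list were all higher in both treated groups than in control. Smooth muscle and pericyte markers summed to 177 and 325 FPKM in the control and 154 to 203 in the treated libraries. Adipocyte markers summed to 123 and 117 FPKM in the control and 93.3 to 157 in the treated libraries. In bulk tissue, fewer cells of a type and less RNA per cell cannot be told apart. The endoplasmic reticulum genes were likewise highest in control replicate 2: relative to each gene's mean on the log2 scale, their median was 0.06 and 0.53 in the control, -0.09 and -0.21 in the CFZ and -0.13 and -0.14 in the CFZ_EA libraries.

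**Figure D5:**
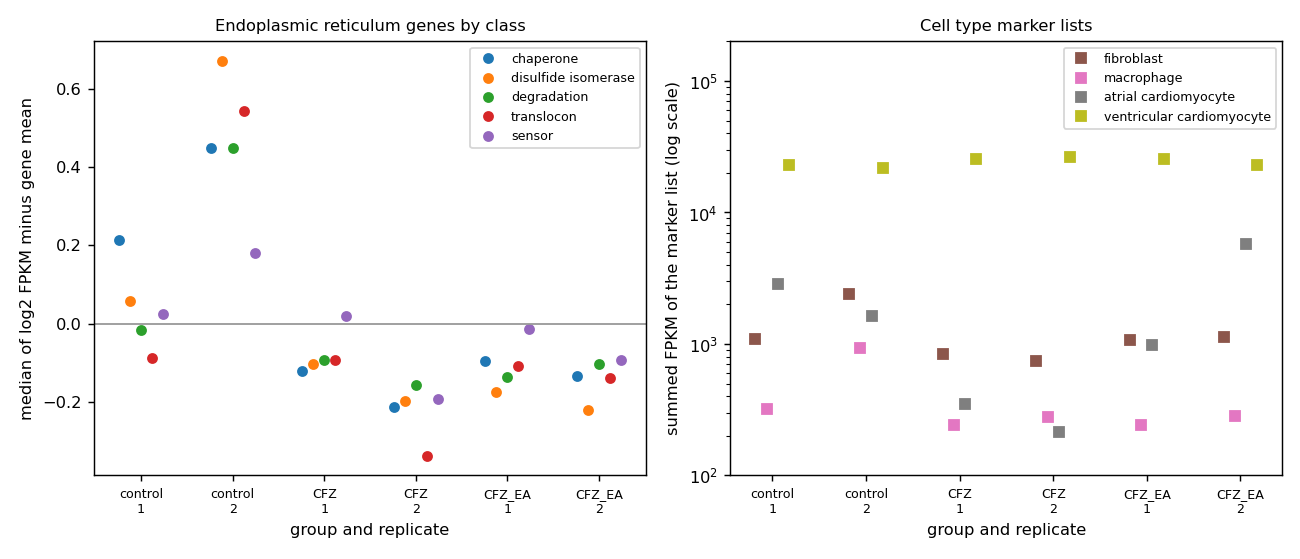
Left, median over each role of log2 FPKM minus the gene's mean, in each library; right, summed FPKM of 4 marker lists on a log axis. Control replicate 2 is the highest library for every role on the left, and for the fibroblast and macrophage lists on the right, where the ventricular list stays between 21863 and 26341 FPKM.

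Between CFZ_EA and CFZ, the 38 genes showed no common direction. There were 21 with a positive fold change (48.1% of all genes) and 17 with a negative one, with a median of 0.015. The CFZ_EA libraries lay above both CFZ libraries for 4 genes (Canx, Sdf2l1, Dnajc3 and Erp44; 15.1% of all genes) and below both for 4 (Dnajb9, Edem2, Derl2 and Sec61g; 17.7%). At an unadjusted p under 0.05, edgeR had 1 gene higher, Dnajc3 (2.01% of all genes), and 0 lower (1.07%). After Benjamini-Hochberg adjustment, edgeR called 0 of the 38 (0.0194% of all genes called), every adjusted p rounding to 1, and DESeq2 called 0 as well (0.532%). Dnajc3 stood at 2.89 and 3.92 FPKM in CFZ_EA against 2.56 and 2.30 FPKM in CFZ, a log2 fold change of 0.50 ± 0.20 (SE) that ran from 0.24 without CFZ_EA replicate 2 to 0.73 without CFZ_EA replicate 1. Hsp90b1 had the next largest positive value of the ERSE genes, 0.33 ± 0.19, with 20.6 and 27.1 against 17.2 and 20.8 FPKM, so the groups overlapped, and the value ran from 0.10 without CFZ_EA replicate 2 to 0.54 without CFZ_EA replicate 1. Hspa5 overlapped more widely, at 48.9 and 29.8 FPKM in CFZ_EA and 26.1 and 42.3 FPKM in CFZ (0.19 ± 0.32, from -0.18 without CFZ_EA replicate 1 to 0.65 without CFZ replicate 2). Edem1 had the highest fitted value of the 38, 0.58 ± 0.48, which rests on the single low value of 0.509 FPKM in CFZ replicate 2 and was 0.063 without it. Of the 38 fold changes, 22 turned sign when 1 library was left out. For Manf the difference was 0.09 ± 0.15, for Pdia4 0.11 ± 0.21, for Sec61b 0.01 ± 0.31, for Syvn1 -0.01 ± 0.13 and for Xbp1 -0.02 ± 0.13. A p that misses the threshold does not show that these levels were alike. The standard errors show how imprecise the differences are, and 1 standard error does not bound them.

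The CFZ_EA group was also set against control, a comparison that shares the control libraries with the first, so that the values stand side by side and are no second piece of evidence. There were 31 of the 38 genes lower (50.3% of all genes), with a median log2 fold change of -0.33 against -0.0013 for all genes. Both CFZ_EA libraries lay below both controls for 24 genes (22.1%). Against control replicate 1 alone the count was 24 (30.7%), and against control replicate 2 alone 35 (55%). At an unadjusted p under 0.05, edgeR had 14 lower (3.66%) and 0 higher (1.47%). With 1 library left out, the lower count ran from 5 without CFZ_EA replicate 1 (1.38% of all genes) to 19 without control replicate 1 (11% of all genes), and it was 8 without CFZ_EA replicate 2 (2.03%). After Benjamini-Hochberg adjustment edgeR called 0 (0% of all genes), with 0.467 as the lowest adjusted p, for Manf, and DESeq2 called 4, Manf, Sdf2l1, Pdia4 and Hyou1 (0.494% of all genes). Without control replicate 2, DESeq2 called 1, Manf (0.716% of all genes). Leaving that library out brought the median to -0.15. Without control replicate 1, edgeR called 6 (Manf, Sec61b, Pdia4, Sdf2l1, Hyou1 and Sec61a1; 2.24% of all genes called).

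Side by side, the log2 fold changes against control can be read gene by gene. For Manf they were -1.20 after carfilzomib and -1.10 after carfilzomib with electroacupuncture, and for Sdf2l1 -1.57 and -1.20. For Pdia4 they were -1.12 and -1.004, for Sec61b -1.10 and -1.09, and for Hyou1 -0.77 and -0.84. Without control replicate 2, the CFZ_EA values were -0.72 for Sdf2l1, -0.65 for Pdia4 and -0.53 for Sec61b, and they were likewise nearer to 0 for Edem1 (-0.39), Edem2 (from -0.53 to -0.23), Pdia3 (from -0.62 to -0.38), Creld2 (from -0.80 to -0.47) and Sec61a1 (from -0.57 to -0.21). The CFZ_EA value of Hspa5, -0.84, was -0.54 without CFZ_EA replicate 2. The gap of Sdf2l1 was among the widest, with those of Hsp90b1 (-0.67 and -0.34), Dnajc3 (-0.69 and -0.19) and Edem1 (-1.50 and -0.92). In CFZ_EA these genes were nearer to control. Derl2 (0.02 and -0.32) and Txndc5 (-0.58 and -1.13), also with wide gaps, were further from it. For Hsp90b1 the CFZ_EA value was -0.13 without CFZ_EA replicate 1 and -0.57 without CFZ_EA replicate 2. In the same order, the values were 0.040 and -0.44 for Dnajc3 and -0.10 and -0.56 for Derl2. That of Derl2 was -0.03 without control replicate 2. The standard errors of the direct comparison give the error of these gaps. They were 0.28 for Sdf2l1, 0.19 for Hsp90b1, 0.20 for Dnajc3, 0.48 for Edem1, 0.24 for Derl2 and 0.42 for Txndc5.

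A further list of 100 genes of the same pathways (other folding factors, other degradation factors, signal cleavage and glycosylation, other sensors and their factors) put the 40 in context, with 91 tested. After carfilzomib 61 were lower and 30 higher, with a median of -0.12, and edgeR called 0 of them (6 lower and 2 higher at an unadjusted p under 0.05, against 5.9% and 1.82% of all genes), as did DESeq2. Without control replicate 2 the median was -0.02, and 1 was lower and 3 higher at that p (3.17% and 1.74% of all genes). Other folding factors were lower in 21 of 27 tested, with a median of -0.32, while other degradation factors (7 of 16 lower) and other sensors and their factors (10 of 17 lower) had medians of 0.02 and -0.01. Serpinh1, the collagen chaperone HSP47, measured 159 and 302 FPKM in the control, 140 and 78.7 in the CFZ and 122 and 133 FPKM in the CFZ_EA libraries (-1.02 ± 0.33 after carfilzomib). Creb3l1, a membrane-bound transcription factor that drives collagen secretion, measured 4.89 and 11.9 FPKM in the control and 3.84 and 3.10 in the CFZ libraries (-1.20 ± 0.36). Both CFZ libraries were below both controls in each, with control replicate 2 well above replicate 1. Nucb2, a calcium-binding protein, had a log2 fold change of -1.09 ± 0.36. With control replicate 2 left out, these values were -0.57 for Serpinh1, -0.51 for Creb3l1 and -0.68 for Nucb2. Ube2g2, the ubiquitin-conjugating enzyme that serves HRD1-type ligases, was higher after carfilzomib, at 17.4 and 17.4 FPKM in the control and 32.7 and 31.6 FPKM in the CFZ libraries (0.94 ± 0.25), while CFZ_EA held 18.7 and 31.5 FPKM. Of these 91 genes, 43 were higher in CFZ_EA than in CFZ. There edgeR called 0 (with an unadjusted p under 0.05 for 2 higher and 1 lower gene, against 2.01% and 1.07% of all genes). DESeq2 called 1 lower (0.532% of all genes called), Spcs1, a subunit of the signal peptidase. It measured 28.4 and 39.4 FPKM in the control, 39.3 and 40.6 in the CFZ and 25.9 and 21.5 FPKM in the CFZ_EA libraries. Its log2 fold change was -0.74 ± 0.16 for CFZ_EA against CFZ and -0.44 ± 0.16 against control. Nucb2 was among the higher genes (0.94 ± 0.36, and 0.59 without CFZ_EA replicate 2). It measured 1.10 and 1.99 FPKM in the control, 0.721 and 0.650 in the CFZ and 1.04 and 1.57 FPKM in the CFZ_EA libraries.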

How the data were processed

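Each of the 3 groups has 2 libraries of heart messenger RNA, 6 in all. Per the labels' protocols, RNA was selected on oligo(dT), libraries marked strand with dUTP, and pairs of 150-base reads were sequenced on a NovaSeq 6000. Tools listed in the submitters' processing notes are StringTie 1.3.4d, HISAT2 2.0.4 and cutadapt 1.9, with GRCm38 as the genome; the sources used here do not give the annotation release, filters or use of strand. Per the file headers, the authors' table has an FPKM column for each library. It has a deposited count column as well, taken as an estimated count and rounded. Of low counts (1 to 20), 42.2% to 43.3% were divisible by 4, where chance gives 25%. One count is then perhaps not a whole read, which would make the true counting error larger.

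The genes and lists were chosen with earlier results of these data known. The 10329 genes averaging 1 FPKM or more were tested with edgeR's quasi-likelihood test on TMM-scaled counts (factors 0.957 to 1.08), in 1 model of group over 6 libraries with 3 residual degrees of freedom, and p-values were Benjamini-Hochberg adjusted over all of them, with 0.05 as the threshold. Where a sentence prints an adjusted p without a tool, it is that of edgeR. An exact permutation test was not used, as its smallest p at 2 against 2 is 0.333. FPKM errors are SDs, and those of log2 fold changes are SEs derived from the fitted fold change and its F statistic. Values in every library and full statistics were given, by rule, for the most abundant gene and the 3 with the smallest p after carfilzomib in each role, any gene called, and the 2 with the smallest p in each comparison; Hspa5 and some others were added after their values were seen. Of the further pathway list, up to 4 per comparison with the smallest p were named. Alternatives were DESeq2, limma on log2 FPKM with pseudocounts of 1 and 0.1, other scaling factors, other filters, only the groups compared, a replicate block and each library left out. Promoters came from RefSeq on GRCm38.p6. Protein endings were not analysed here. Versions were DESeq2 1.42.0, edgeR 4.0.16 and limma 3.58.1 in R 4.3.3, with Python 3.11.15 and matplotlib 3.10.9. Total counts of 50013990 to 75742448 per library put a floor of 3 counts at 0.0396 to 0.0600 CPM, for counting error only, as reads without molecular identifiers are not independent molecules.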

Additional observations from a re-analysis of the deposited data

How the results depend on the processing

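Over all genes tested, edgeR's counts of called genes moved with the setting, and the cause was not tested. The genes tested were 10329, except 26835 with no filter on low genes and 18273 with edgeR's own filter. For CFZ against control, 0 higher and 3 lower genes became 27 and 111 with DESeq2 and 15 and 17 without control replicate 2 and CFZ_EA replicate 2 together; the higher count was 1 with no filter on low genes and 1 with edgeR's own filter, and the lower count was 0 with only the 2 groups compared and 1 with counts divided by 4. For CFZ_EA against CFZ, 2 higher and 0 lower became 38 and 17 with DESeq2; the higher count was 1 with counts divided by 4, and the lower count was 1 with only the 2 groups compared and 1 without those 2 libraries together. For CFZ_EA against control, 0 higher and 0 lower became 26 and 25 with DESeq2, and the higher count was 1 without those 2 libraries together. With each library left out in turn, the counts higher and lower ran from 0 to 24 and 0 to 308 for CFZ against control, from 0 to 4 and 0 to 1 for CFZ_EA against CFZ, and from 0 to 20 and 0 to 211 for CFZ_EA against control, the largest without control replicate 1 in both comparisons against control. Such fits leave a group with 1 library, which is assumed to vary like the other groups.

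The median of the 38 endoplasmic reticulum genes stayed negative against control in every setting, from -0.52 (without control replicate 1) to -0.21 (without control replicate 2) for CFZ and from -0.46 to -0.15 for CFZ_EA with the same libraries left out. Among the genes named by rule, Herpud1 turned from -0.10 to 0.069 without CFZ replicate 1 (lowest -0.30, without CFZ replicate 2), and Ssr3 turned from -0.03 (lowest -0.17, without CFZ replicate 1) to 0.022 with no filter, 0.020 with edgeR's own filter, 0.0975 without the 2 libraries together or control replicate 2 alone, and 0.10 without CFZ replicate 2. Deviations of same-numbered libraries had correlations of -0.06, 0.09 and -0.03. With 2 libraries a group, these values cannot settle whether replicate numbers pair the libraries. With the replicate block, the median was -0.36 for CFZ and -0.33 for CFZ_EA against control, 14 and 10 of the 38 were lower at an unadjusted p under 0.05 (5.88% and 3.6% of all genes), edgeR called 0 of the 38, and over all genes it called 2 lower for CFZ. The comparisons with 1 control library alone, and DESeq2 without control replicate 2, were chosen after seeing the data. Standard errors after carfilzomib ran from 0.10 (Wfs1) to 0.49 (Edem1) on the log2 scale, which sets what 2 libraries a group resolve.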

Other observations

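Ddit3, Atf4 and Ppp1r15a of the PERK branch are named here after their values were seen. Ddit3, which encodes the death-associated factor CHOP, measured 11.1 and 10.6 FPKM in the control, 8.55 and 12.0 in the CFZ and 8.91 and 10.2 FPKM in the CFZ_EA libraries, with a log2 fold change of -0.02 ± 0.23 (SE) after carfilzomib. Atf4, the transcription factor translated when PERK is active, measured 33.1 and 32.1 FPKM in the control, 30.2 and 37.4 in the CFZ and 29.2 and 31.5 FPKM in the CFZ_EA libraries (0.11 ± 0.17). For both genes the CFZ libraries lay on either side of the controls and both CFZ_EA libraries were below them. Without CFZ replicate 2 the value after carfilzomib was -0.34 for Ddit3 and -0.11 for Atf4, and without CFZ replicate 1 it was 0.24 and 0.30. Ppp1r15a, which encodes the phosphatase subunit GADD34, measured 7.92 and 9.79 FPKM in the control, 7.23 and 5.85 in the CFZ and 5.77 and 7.40 FPKM in the CFZ_EA libraries, all 4 treated libraries below both controls (-0.38 ± 0.19 after carfilzomib).

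Other folding factors gave the smallest p-values of the further pathway list between CFZ_EA and control, none of them called by edgeR or DESeq2 (4 of the 91 lower and 1 higher at an unadjusted p under 0.05 by edgeR, against 3.66% and 1.47% of all genes). Ppib, the collagen prolyl isomerase cyclophilin B, measured 26.7 and 43.5 FPKM in the control, 25.4 and 22.4 in the CFZ and 22.3 and 22.9 FPKM in the CFZ_EA libraries (-0.56 ± 0.19 for CFZ_EA, and -0.24 without control replicate 2). Fkbp2, a prolyl isomerase of the lumen, measured 14.8 and 16.8 FPKM in the control, 12.4 and 11.9 in the CFZ and 10.4 and 11.7 FPKM in the CFZ_EA libraries (-0.45 ± 0.14). Both treated groups lay below both control libraries for each of these genes. Nfe2l1, the factor that restores proteasome genes after inhibition, measured 13.2 and 14.8 FPKM in the control, 16.8 and 12.8 in the CFZ and 16.5 and 17.2 FPKM in the CFZ_EA libraries (0.33 ± 0.13 for CFZ_EA), and the CFZ libraries lay on either side of the control libraries.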
